A study of Mus musculus with 10 samples.

Results

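The genes described here are *Myc* and 33 genes of ribosome biogenesis, 34 of the 26888 genes in an expression table of OP9 cells, a stromal line derived from mouse calvaria. They were chosen by name, with earlier results of these data in view, and the 34 were found in the table and exceeded 0.5 RPM (the reads-per-million scale) in at least 1 library, as did 16933 genes in total.

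Ribosomes are built in the nucleolus, where RNA polymerase I transcribes a long precursor that small nucleolar ribonucleoprotein particles (snoRNPs) modify while assembly factors cleave and fold it into the small and the large subunit. MYC, a transcription factor that pairs with MAX to bind the E-box CACGTG, is known as an activator of polymerase I transcription and of many genes for assembly factors and ribosomal proteins. Making ribosomes takes a large part of the resources of a growing cell, and its genes are usually more active in growing than in resting cells.

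OP9 cells, from a mouse of the (C57BL/6xC3H)F2-op/op background, serve as a stand-in for the embryonic niche that supports hematopoietic stem cells, and the study compared them in a supportive 3D culture with the same line grown flat. For the 6 reaggregates, cells were dispersed with trypsin, pelleted by centrifugation, held for 48 h at the liquid-gas interface on nitrocellulose filters with 0.8-µm pores, and dissociated with collagenase and dispase before RNA extraction. Reaggregates 2, 4 and 6 received IL-3, at a labeled dose of 200 µg/µl whose unit is uncertain, and reaggregates 1, 3 and 5 did not. The 4 flat cultures were submersed. Flat cultures 2 and 4 are labeled as from the de Bruijn laboratory, flat cultures 1 and 3 carry no laboratory in their labels, and the source of the reaggregated cells is not labeled. A single line stands behind the 10 libraries, and no label says which cultures were independent, so the p-values below measure the spread between samples and nothing wider.

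The cells carried the markers of their labeled type. Stromal markers, 8 of 8 detected, summed to 20160 to 26940 RPM in reaggregates and 15250 to 20300 RPM in flat cultures, with the most RPM from *Col1a2* in the 6 reaggregates and from *Vim* in the 4 flat cultures. Single markers moved both ways. By limma 4 rose (50%, against 13.6% of all genes), *Pdgfra*, *Pdgfrb*, *Col1a1* and *Col1a2*, by 1.58 to 1.93 on the log2 scale. *S100a4* fell by 2.39 (limma adjusted p = 0.00291), and 3 were not called. With consecutive reaggregates averaged, 2 rose (25%, against 1.94% of all genes) and 1 fell (12.5%, against 2.68%). Of 8 hematopoietic markers, *Ptprc*, *Adgre1* and *Cd52* were at 0 in the 10 libraries, and the list, led by *Lyz2*, summed to between 8.02 and 49.3 RPM. Endothelial markers summed to at most 1.64 RPM, with the most from *Pecam1* in 8 of 10 libraries.

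Library depth was estimated by taking the commonest low RPM value of a library as 1 read. It came to 7.35 M to 9.43 M reads on genes in reaggregates and 8.26 M to 8.70 M in flat cultures. The estimate is approximate: 65.4% (reaggregate 5) to 68.7% (flat culture 3) of low values lay near whole multiples of that value. At that depth, 3 reads, the upper limit that a count of 0 allows, correspond to 0.318 to 0.408 RPM, which covers counting error only. RPM scales each library to the same total and takes no account of transcript length, so levels are compared between samples and not between genes. Multimapping reads had been divided among genes, which makes the level of a gene with processed pseudogenes, such as *Npm1*, less certain. In bulk samples, fewer cells of a type and less RNA per cell cannot be told apart.

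Some libraries stood apart from the design. Consecutive reaggregates, 1 with 2, 3 with 4 and 5 with 6, were more alike than other pairs: the members differed on average by 0.0938 to 0.158 on the log2 scale within the 3 consecutive pairs and by 0.177 to 0.371 within the 12 other pairs. Each consecutive pair holds a culture with IL-3 and a culture without it. Counts are therefore given also with each consecutive pair averaged, which leaves 3 reaggregate values against 4 flat values. Flat cultures varied more, the members differing on average by 0.332 (cultures 2 and 4) to 0.577 (cultures 1 and 2), so the counts are given against each flat source as well.

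Ribosome biogenesis genes were lower in reaggregates. Of the 34 members, 21 fell at a limma adjusted p of at most 0.05 (61.8%, against 15.7% of all genes tested) and 0 rose (13.6% of all genes). At an unadjusted p under 0.05, 25 members were lower and 0 higher. Unadjusted counts, here and below, lack the share of all genes except for IL-3, so they are not compared with other genes. The median log2 fold change of the members was -0.57, against 0.04 over all genes, and 32 of 34 had a negative value. Members that fell by at least 2-fold numbered 5, or 14.7% (6.53% of all genes), and were *Nop2*, *Nip7*, *Dkc1*, *Nhp2* and *Rrs1*, with 0 members rising that far (7.32%). In 17 members, or 50%, each of the 6 reaggregates lay below each of the 4 flat cultures (11.4% of all genes), and in 0 members each lay above (7.8%). The number falling at least 2-fold was 3 without flat culture 2 and 2 without flat culture 4, counts for which no share of all genes is given.

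With consecutive reaggregates averaged, the calls shrank to 2 members lower, *Dkc1* and *Bysl* (5.88%, against 2.68% of all genes), and 0 higher (1.94%), with 16 members lower and 0 higher at an unadjusted p under 0.05. Averaging pairs of equal size leaves each log2 fold change as it was, so the median of the members was the same by construction. Against the flat cultures without a laboratory label, 12 members fell (35.3%, against 11.5% of 16637 genes) and 0 rose (6.76%). Against the de Bruijn flat cultures, 18 fell (52.9%, against 21.9% of 16697 genes) and 0 rose (25.7%), where 1 member was higher at an unadjusted p under 0.05. The fits against either source share the 6 reaggregates, which favors overlap for any gene. Lower in both were 9 members: *Nop56*, *Nop58*, *Dkc1*, *Nhp2*, *Bysl*, *Wdr12*, *Nop2*, *Nip7* and *Rrs1*. The share of all genes lower in both is not given, so this count is not read as particular to the members. Of the 21 called members, 12 kept the call when any 1 of the 10 libraries was left out. No share of all genes is given for this count, so it is not compared with other genes.

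**Figure D1:**
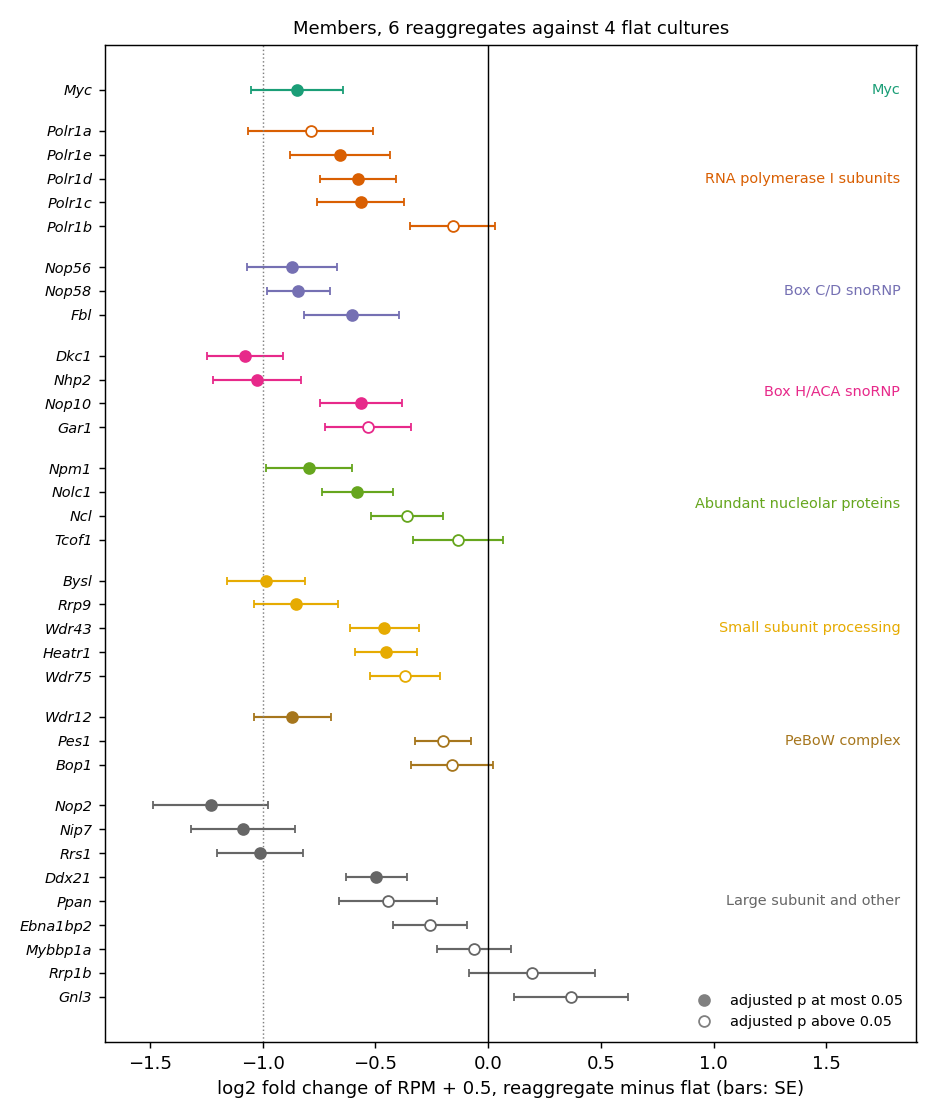
Log2 fold change of each of the 34 members, reaggregates minus flat cultures, ordered by role, with bars for the SE from limma. The values run from -1.23 for *Nop2* to 0.37 for *Gnl3*, and 21 members passed an adjusted p of 0.05, each of them lower in reaggregates.

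*Myc* itself was among the members that fell. Its level was 23.1 RPM in the lowest reaggregate, 29.6 RPM at the median and 33.0 RPM in the highest, and 33.5, 53.6, 74.2 and 53.6 RPM in flat cultures 1 to 4. No reaggregate reached a flat culture, although flat culture 1 lay just above the highest reaggregate and flat culture 3 well above the rest. The mean was 28.7 ± 3.65 RPM (SD, n = 6) against 53.7 ± 16.6 RPM (SD, n = 4), and *Myc* fell by 0.85 on the log2 scale (SE 0.204, limma adjusted p = 0.0109). Its adjusted p was 0.106 with consecutive reaggregates averaged and ranged from 0.00134 to 0.246 over 26 alternative settings, with log2 fold changes from -1.06 to -0.68. By flat source, *Myc* was called against the de Bruijn cultures (log2 fold change -0.90) and not against those without a laboratory label (-0.80).

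The 5 members that encode subunits of RNA polymerase I had a median log2 fold change of -0.58, and 3 of them fell. With 3 further subunit genes that are not members, *Twistnb*, *Cd3eap* and *Znrd1*, the count was 3 of 8 and the median -0.54. *Polr1a*, which encodes the largest and catalytic subunit, was at 41.1, 47.3 and 54.5 RPM in the lowest, median and highest reaggregate and at 42.7, 156, 77.6 and 85.5 RPM in flat cultures 1 to 4. Flat culture 1 lay within the range of the reaggregates and flat culture 2 was far above the others. With a log2 fold change of -0.79 (SE 0.278), *Polr1a* missed the threshold (limma adjusted p = 0.0521), and it passed without flat culture 1 (log2 fold change -1.10, adjusted p = 0.00669). Without flat culture 2 the value was -0.48 (adjusted p = 0.127), and over the alternatives it ran from -1.29, against the de Bruijn flat cultures, to -0.29, against the other flat cultures (adjusted p from 9.65e-04 to 0.591). *Polr1b*, encoding the other large subunit of the catalytic core, spanned 11.2 to 18.5 RPM in reaggregates with a median of 15.8 RPM, and stood at 15.4, 18.6, 20.5 and 14.5 RPM in the flat cultures. The groups overlapped for *Polr1b*, and its log2 fold change of -0.16 had a 95% confidence interval of -0.57 to 0.25 (limma adjusted p = 0.539).

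Of the other subunit genes among the members, *Polr1c* and *Polr1d*, which polymerase I shares with polymerase III, fell by 0.57 and by 0.58 on the log2 scale (limma adjusted p = 0.0466 and 0.0262). *Polr1d* did so without overlap, from 54.3 to 68.8 RPM in reaggregates against 70.2 to 117 RPM in flat cultures. *Polr1e*, a subunit of the heterodimer that joins the core enzyme, fell by 0.66 (limma adjusted p = 0.0453), with reaggregates at 7.89 to 11.8 RPM and flat cultures at 11 to 23.7 RPM. These 3 calls lay near the threshold. *Twistnb*, *Cd3eap* and *Znrd1* had log2 fold changes of -0.41, -0.51 and -0.27 with overlapping groups and were not called (limma adjusted p = 0.167, 0.155 and 0.299). Leaving out a single library raised the adjusted p above 0.05 for *Polr1c* in 7 of 10 cases (reaggregates 1 to 5, flat cultures 1 and 4; up to 0.123), for *Polr1d* in 4 (reaggregates 1 and 2, flat cultures 1 and 4; up to 0.0877), and for *Polr1e* in 9 (any library but flat culture 2; up to 0.114).

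Box C/D snoRNPs guide methylation of ribosomal RNA, and the 3 members that encode their core proteins fell without overlap between groups. *Nhp2l1*, for a further core protein of the particle and not a member, had a log2 fold change of -0.20 (limma adjusted p = 0.507), with reaggregates at 83.4 to 123 RPM and flat cultures at 80.3 to 186 RPM. *Nop56*, a scaffold protein of the particle, was at 49.1, 56.6 and 64.9 RPM in the lowest, median and highest reaggregate and at 150, 66.5, 119 and 97.7 RPM in flat cultures 1 to 4. Flat culture 2 came close to the highest reaggregate, and the other flat cultures were well above it. The mean was 56.8 ± 6.01 RPM (SD, n = 6) against 108 ± 35.2 RPM (SD, n = 4), for a log2 fold change of -0.87 with an SE of 0.201 (limma adjusted p = 0.00919; 0.0999 with averaging and 8.68e-04 to 0.127 over the alternatives).

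*Fbl* encodes fibrillarin, the methyltransferase of the same particle, and had the smallest change of the class. It was at 10, 13.5 and 19.2 RPM in the lowest, median and highest reaggregate and at 21.2, 20.4, 20.5 and 22.3 RPM in the flat cultures. Flat cultures were close to each other, and reaggregates 3 and 4 were nearer to them than reaggregates 5 and 6. *Fbl* fell by 0.60 on the log2 scale (SE 0.210, limma adjusted p = 0.0491), and the call was lost without any 1 of the 10 libraries other than reaggregates 3 and 4 (adjusted p from 0.0529 to 0.117). *Nop58*, the partner of *Nop56* in the scaffold, was at 55.0 to 64.2 RPM in reaggregates and 83.6 to 126 RPM in flat cultures and fell by 0.84 (limma adjusted p = 0.00184; 0.0558 with averaging and at most 0.0695 over the alternatives).

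Box H/ACA snoRNPs convert uridines of ribosomal RNA to pseudouridine, and 3 of the 4 genes for their core proteins fell. *Dkc1*, encoding the pseudouridine synthase dyskerin, was at 16.9, 19.4 and 24.6 RPM in the lowest, median and highest reaggregate and at 48.8, 33.1, 46.0 and 43.0 RPM in flat cultures 1 to 4. Each flat culture lay above each reaggregate, and flat culture 2 was the lowest of the 4. The mean was 19.98 ± 3.21 RPM (SD, n = 6) against 42.7 ± 6.84 RPM (SD, n = 4), 2.11-fold lower by the fit (log2 fold change -1.08, SE 0.169, limma adjusted p = 0.00131). *Dkc1* was called in 25 of 26 alternatives, with averaged reaggregates among them (adjusted p = 0.0329, in a range of 8.64e-04 to 0.0551).

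*Gar1*, which encodes a core protein of the same particle, was at 7.81, 11.3 and 14.7 RPM in the lowest, median and highest reaggregate and at 15.0, 16.6, 19.6 and 14.7 RPM in the flat cultures. The ranges met at a single value, shared by reaggregate 2 and flat culture 4. Its log2 fold change of -0.53 (95% confidence interval -0.95 to -0.11) missed the threshold (limma adjusted p = 0.0563) and passed it without reaggregate 2 (adjusted p = 0.0493, in a range of 0.0340 to 0.395 over the alternatives). *Nhp2* was nearly constant over reaggregates, at 28.5 to 32.2 RPM, against 38.5 to 84.0 RPM in flat cultures, and fell by 1.03 (limma adjusted p = 0.00366). *Nop10* fell by 0.56 (limma adjusted p = 0.0370) with overlapping groups, and was above the threshold without reaggregate 1, 2, 3 or 4 or flat culture 1 or 4 (adjusted p up to 0.0968).

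Among proteins that organize the nucleolus, *Npm1* and *Nolc1* fell and *Ncl* and *Tcof1* did not pass the test. *Npm1*, encoding the nucleolar chaperone nucleophosmin, was at 279, 311 and 403 RPM in the lowest, median and highest reaggregate and at 629, 504, 422 and 766 RPM in flat cultures 1 to 4. Reaggregates 3 and 4 were the highest of their group and flat culture 3 the lowest of its own, and the groups did not overlap. *Npm1* fell by 0.79 on the log2 scale (SE 0.191, limma adjusted p = 0.0110; 0.106 with averaging and 0.00257 to 0.228 over the alternatives). *Tcof1*, encoding treacle, a cofactor of polymerase I transcription, was at 32.2, 47.8 and 52.6 RPM in the lowest, median and highest reaggregate and at 42.7, 42.5, 70.4 and 43.2 RPM in the flat cultures. Only flat culture 3 lay above the reaggregates, and the log2 fold change of -0.13 (95% confidence interval -0.57 to 0.30, limma adjusted p = 0.624) became 0.04 without it.

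*Nolc1*, whose product binds snoRNPs in the nucleolus, fell by 0.58 (limma adjusted p = 0.0185), from 44.7 to 48.9 RPM in reaggregates against 50.5 to 90.5 RPM in flat cultures, with an adjusted p of 0.0504 without flat culture 2. *Ncl*, encoding nucleolin, was at 333 to 469 RPM in reaggregates and 427 to 627 RPM in flat cultures, with a log2 fold change of -0.36 (limma adjusted p = 0.107).

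Of 5 genes for processing of the small subunit, 4 fell, with *Bysl* the most. *Bysl* encodes bystin, which acts in the maturation of small-subunit precursors, and was at 15.7, 19.0 and 23.2 RPM in the lowest, median and highest reaggregate and at 34.6, 47.8, 33.2 and 39.4 RPM in flat cultures 1 to 4. Both groups were well separated, and flat culture 2 was the highest of the 10 libraries. The mean was 19.4 ± 3.41 RPM (SD, n = 6) against 38.8 ± 6.59 RPM (SD, n = 4), for a log2 fold change of -0.99 with an SE of 0.174 (limma adjusted p = 0.00259; 0.0495 with averaging and 0.00111 to 0.138 over the alternatives). *Wdr75*, a component of the complex that assembles first on the precursor RNA, was at 28.7, 39.5 and 43.3 RPM in the lowest, median and highest reaggregate and at 58.2, 40.4, 48.9 and 51.2 RPM in the flat cultures. Flat culture 2 lay among the reaggregates, and reaggregate 5 was below the rest. The log2 fold change of *Wdr75* was -0.37 (95% confidence interval -0.71 to -0.03, limma adjusted p = 0.0886).

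*Rrp9*, a protein of the snoRNP that guides the first cleavages of the precursor, fell by 0.85 without overlap (limma adjusted p = 0.00725), from 11.5 to 17.4 RPM in reaggregates against 22.4 to 36.1 RPM in flat cultures. *Wdr43* and *Heatr1*, which act in the same early complex as *Wdr75*, fell by 0.46 and by 0.45 (limma adjusted p = 0.0420 and 0.0303). The groups overlapped for *Wdr43* and not for *Heatr1*. Both calls depended on single libraries: *Wdr43* was called without flat culture 2 or 3 and not without any of the other 8 (adjusted p up to 0.0995), and *Heatr1* was not called without reaggregate 2, 3, 4 or 5 or flat culture 2 or 4 (adjusted p up to 0.0798).

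The PeBoW complex, made of the products of *Pes1*, *Bop1* and *Wdr12*, is required for processing of large-subunit RNA, and 1 of its 3 genes fell. *Wdr12* was at 11.6, 13.8 and 16.2 RPM in the lowest, median and highest reaggregate and at 28.1, 23.2, 20 and 30.6 RPM in flat cultures 1 to 4. Its reaggregates were close together and below each flat culture. The mean was 13.6 ± 1.67 RPM (SD, n = 6) against 25.5 ± 4.77 RPM (SD, n = 4), for a log2 fold change of -0.87 with an SE of 0.171 (limma adjusted p = 0.00431; 0.0725 with averaging and 0.00136 to 0.170 over the alternatives). *Bop1* was at 62.3, 78.2 and 87.9 RPM in the lowest, median and highest reaggregate and at 114, 63.5, 93.7 and 72.8 RPM in the flat cultures. Flat cultures 1 and 3 were above the reaggregates and flat cultures 2 and 4 among them. Its log2 fold change was -0.16 (95% confidence interval -0.56 to 0.24, limma adjusted p = 0.518), and that of *Pes1*, with overlapping groups of 59.7 to 77.2 RPM and 73.7 to 88.2 RPM, was -0.20 (adjusted p = 0.237).

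The other 9 members act on the large subunit or elsewhere in the nucleolus, and 4 of them fell. *Nop2*, encoding a methyltransferase of large-subunit RNA, had the largest change among the 34 members. It was at 33.9, 39.6 and 43.3 RPM in the lowest, median and highest reaggregate and at 59.1, 150, 62.6 and 126 RPM in flat cultures 1 to 4. No value of one group fell within the other, and within the flat cultures those of the de Bruijn laboratory were more than 2-fold above the other pair. The mean was 38.8 ± 3.82 RPM (SD, n = 6) against 99.4 ± 45.6 RPM (SD, n = 4), 2.35-fold lower by the fit (log2 fold change -1.23, SE 0.254, limma adjusted p = 0.00542; 0.0767 with averaging). *Nop2* was called against either flat source, with log2 fold changes over the alternatives from -1.82 to -0.65.

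*Mybbp1a*, whose product is a MYB-binding protein of the nucleolus, had the smallest change of the members. It was at 149, 195.5 and 216 RPM in the lowest, median and highest reaggregate and at 229, 173, 236 and 157 RPM in the flat cultures. Flat cultures 1 and 3 were above the reaggregates and flat cultures 2 and 4 within their range. The log2 fold change was -0.06 (95% confidence interval -0.42 to 0.29, limma adjusted p = 0.786), with a positive sign without reaggregate 6 (0.0027), flat culture 1 (0.01) or flat culture 3 (0.03).

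*Nip7* and *Rrs1*, factors of large-subunit assembly, fell by 1.09 and by 1.01 without overlap (limma adjusted p = 0.00644 and 0.00348). The RNA helicase gene *Ddx21* fell by 0.50 (limma adjusted p = 0.0201), from 61.4 to 85.3 RPM in reaggregates against 88.7 to 123 RPM in flat cultures, with an adjusted p of 0.0543 without flat culture 2. The assembly factor genes *Ppan* and *Ebna1bp2* had log2 fold changes of -0.45 and -0.26 with overlapping groups (limma adjusted p = 0.136 and 0.242). *Ebna1bp2* fell by 0.56 against the flat cultures without a laboratory label (limma adjusted p = 0.0253). Against the de Bruijn flat cultures its log2 fold change was 0.037 (limma adjusted p = 0.815). *Gnl3*, encoding the GTPase nucleostemin, and *Rrp1b* were the 2 members with positive values, 0.37 and 0.19 (limma adjusted p = 0.277 and 0.616), and reaggregates 5 and 6 were the lowest of their group for both. With 1 library left out, *Gnl3* ran from 0.15 (without flat culture 2) to 0.53 (without flat culture 1) and *Rrp1b* from 0.013 (without flat culture 4) to 0.48 (without flat culture 3).

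**Figure D2:**
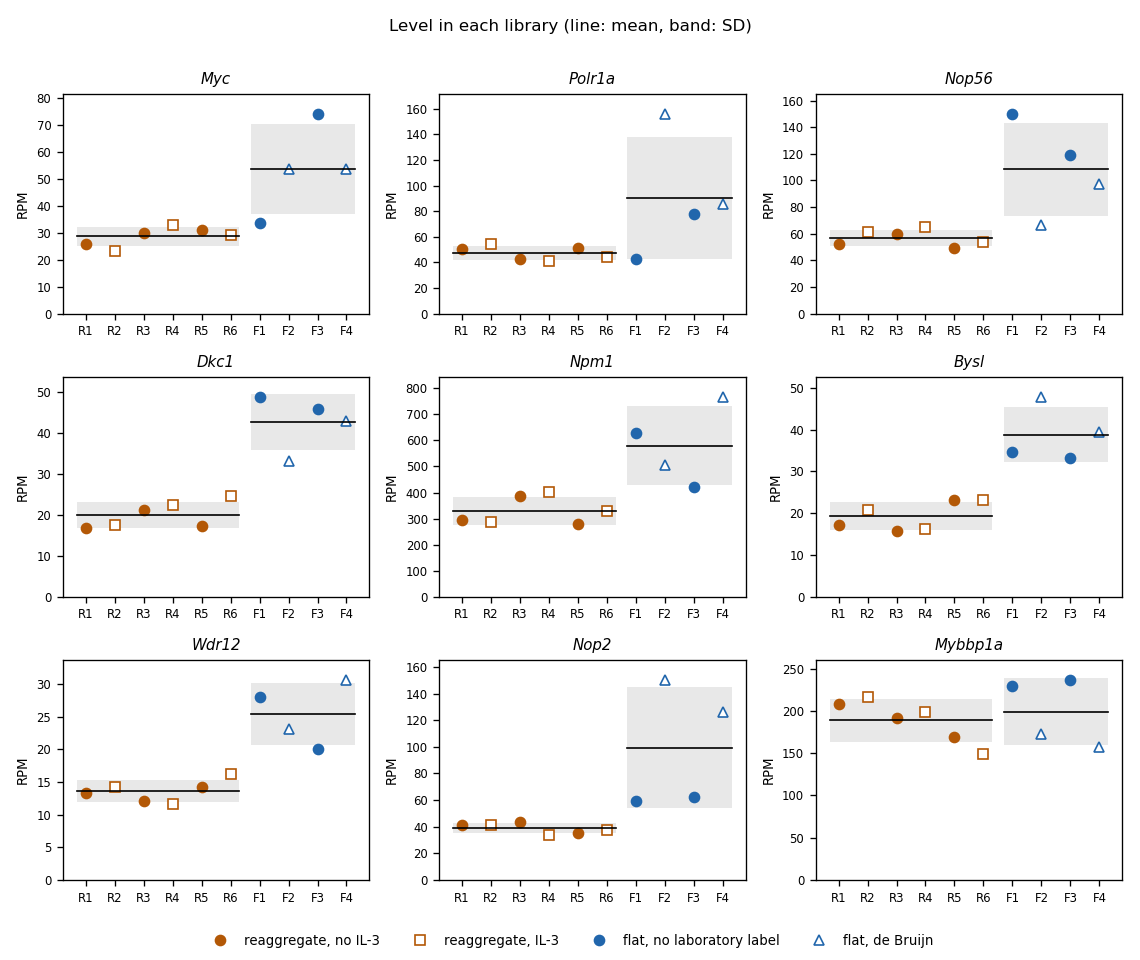
RPM of 9 members in each of the 6 reaggregates and 4 flat cultures, 1 panel a gene with its own axis from 0, with lines at the group means and shaded bands for the SD. Reaggregates lie below each flat culture for *Myc*, *Nop56*, *Dkc1*, *Npm1*, *Bysl*, *Wdr12* and *Nop2*, and the groups overlap for *Polr1a* and *Mybbp1a*.

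Other genes of the pathway fell in part. Of 43 further genes for the small-subunit processome, 13 fell (30.2%, against 15.7% of all genes) and 0 rose (13.6% of all genes; limma; 13 lower and 0 higher at an unadjusted p under 0.05), with a median log2 fold change of -0.23. Among them *Rcl1*, whose product takes part in early cleavage of the precursor, averaged 20.1 ± 1.98 RPM (SD, n = 6) against 47.6 ± 11.5 RPM (SD, n = 4) and fell by 1.199 (limma adjusted p = 8.93e-04). *Pno1*, an assembly factor of the small subunit, averaged 30.2 ± 1.91 RPM against 66.3 ± 21.7 RPM and fell by 1.07 (limma adjusted p = 0.00332). Large-subunit assembly had 13 of 39 further genes lower (33.3%) and 0 higher (limma; 18 lower and 0 higher at an unadjusted p under 0.05), with a median of -0.28. Its count was 7 without reaggregate 1, 3 or 4 or flat culture 4 and 8 without reaggregate 2. *Rpf2*, needed to bring 5S RNA into the large subunit, averaged 11.3 ± 3.74 RPM against 26.6 ± 9.21 RPM and fell by 1.19 (limma adjusted p = 0.0102), and *Nop16* averaged 19.3 ± 2.78 RPM against 42.0 ± 11.4 RPM and fell by 1.08 (limma adjusted p = 0.00279). With consecutive reaggregates averaged, 1 of the small-subunit genes (*Rcl1*; 2.33%, against 2.68% of all genes) and 0 of the large-subunit genes were called lower. Against the flat cultures without a laboratory label, 8 small-subunit (18.6%) and 7 large-subunit genes (17.9%) fell, against 11.5% of all genes, and 0 rose in either list, against 6.76%. Against the de Bruijn flat cultures, 18 small-subunit genes fell (41.9%) and 3 rose (6.98%), and 16 large-subunit genes fell (41%) and 5 rose (12.8%), where 21.9% of all genes fell and 25.7% rose. Without flat culture 3, 2 large-subunit genes rose.

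Among 9 further genes of polymerase I transcription, 0 fell and 1 rose (11.1%, against 13.6% of all genes; limma, with 0 lower and 2 higher at an unadjusted p under 0.05), with a median log2 fold change of -0.27 and 6 of 9 values negative. Against the flat cultures without a laboratory label 1 fell (11.1%, against 11.5% of all genes) and 0 rose, and without flat culture 2 the number falling was 1. Against the de Bruijn flat cultures 2 fell and 2 rose (22.2% each, against 21.9% and 25.7% of all genes). These shares are close to those of all genes. The gene that rose was *Ubtf*, encoding a factor that binds the promoter and body of ribosomal RNA genes, at 169 ± 21.8 RPM (SD, n = 6) against 118 ± 26.9 RPM (SD, n = 4), with overlapping groups. Its log2 fold change was 0.53 (limma adjusted p = 0.0337; 0.180 with averaging), and the list's count of risers was 0 without reaggregate 1, 2, 3 or 4 or flat culture 2 or 4 and 2 without reaggregate 5 or flat culture 3.

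*Max*, the obligate partner of MYC, averaged 47.0 ± 5.13 RPM (SD, n = 6) against 46.0 ± 8.74 RPM (SD, n = 4), with a log2 fold change of 0.04 (limma adjusted p = 0.845). Of 10 genes of the MYC network, 5 rose (50%, against 13.6% of all genes) and 1 fell (10%, against 15.7%). Against the flat cultures without a laboratory label 3 rose (30%, against 6.76% of all genes) and 1 fell, and against the de Bruijn flat cultures 5 rose (25.7% of all genes) and 0 fell. With averaging 2 rose (20%, against 1.94% of all genes) and 0 fell. *Mnt*, a repressor that competes with MYC for MAX, averaged 106 ± 27.5 RPM against 28.6 ± 11.3 RPM and rose by 1.91 (limma adjusted p = 9.13e-04). *Mxd1*, a repressor of the same family, averaged 12.5 ± 4.04 RPM against 4.04 ± 1.79 RPM and rose by 1.56 (limma adjusted p = 0.00714; 0.0736 with averaging). For *Mnt* and *Mxd1* the groups did not overlap. *Mxd3*, a further family member, averaged 4.32 ± 1.13 RPM against 21.4 ± 17.2 RPM with overlapping groups and fell by 1.84 (limma adjusted p = 0.0137; 0.113 with averaging).

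Textbook targets of MYC outside ribosome biogenesis fell in 8 of 10 cases (80%, against 15.7% of all genes) and rose in 0 (limma; 8 lower and 0 higher at an unadjusted p under 0.05), with a median of -1.06 and 5 lower with averaging (50%, against 2.68% of all genes). *Ldha*, encoding lactate dehydrogenase A, averaged 413 ± 12.02 RPM against 1416 ± 313 RPM and fell by 1.75 (limma adjusted p = 9.63e-05). *Ccnd2*, encoding a D-type cyclin, averaged 65.2 ± 2.84 RPM in reaggregates and was at 94.6, 457, 122 and 482 RPM in flat cultures 1 to 4, so its fall of 1.78 (limma adjusted p = 0.00989) varied with the flat source.

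Summed levels of the members were 1875 to 2298 RPM in reaggregates and 3132, 2879, 2968 and 3260 RPM in flat cultures 1 to 4, with the most RPM from *Npm1* in flat cultures 1, 2 and 4 and from *Ncl* in the other 7 libraries. The 81 genes for cytosolic ribosomal proteins, with the most RPM from *Rpl8* in 7 libraries and from *Rplp0* in 3, summed to 14930 to 20280 RPM in reaggregates and to 34990, 28460, 20090 and 40270 RPM in flat cultures, where flat culture 3 lay within the range of the reaggregates. Of the 81, 53 fell (65.4%, against 15.7% of all genes) with a median log2 fold change of -0.71, and 1 was called with averaging (1.23%, against 2.68% of all genes). Their count was 18 against the flat cultures without a laboratory label (22.2%, against 11.5% of all genes) and 62 against the de Bruijn flat cultures (76.5%, against 21.9%). Markers of cycling cells moved the same way, 15 of 16 falling (93.8%, against 15.7% of all genes) and 10 with averaging (62.5%, against 2.68%). By flat source, 16 fell against the cultures without a laboratory label (100%, against 11.5% of all genes). Against the de Bruijn cultures 14 fell (87.5%, against 21.9%). Their sum was 518 to 702 RPM in reaggregates and 2881, 1330, 2438 and 1572 RPM in flat cultures. *Top2a* gave the most RPM to that sum in 6 libraries, flat cultures 1 and 3 among them, and *Rrm2* in flat cultures 2 and 4. *Mki67*, *Top2a* and *Mcm5*, which mark dividing cells or act in DNA replication, fell by 1.57, by 1.75 and by 1.95 (limma adjusted p = 0.0245, 0.00328 and 0.00150). The groups did not overlap for *Top2a* and *Mcm5*. They did for *Mki67*, at 34.9 to 44.3 RPM in reaggregates and 181, 39.0, 328 and 81.1 RPM in flat cultures 1 to 4. Adipocyte markers, 7 of 8 in the table, summed to 225 to 650.3 RPM in reaggregates and to 335, 1200, 464 and 1341 RPM in flat cultures, high in those of the de Bruijn laboratory. In those cultures *Fabp4* gave the most RPM, 435 and 711, and in the other 8 libraries *Lpl* did. The part of cell cycling, of adipocyte content and of dissociation in the members' lower levels was not tested.

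**Figure D3:**
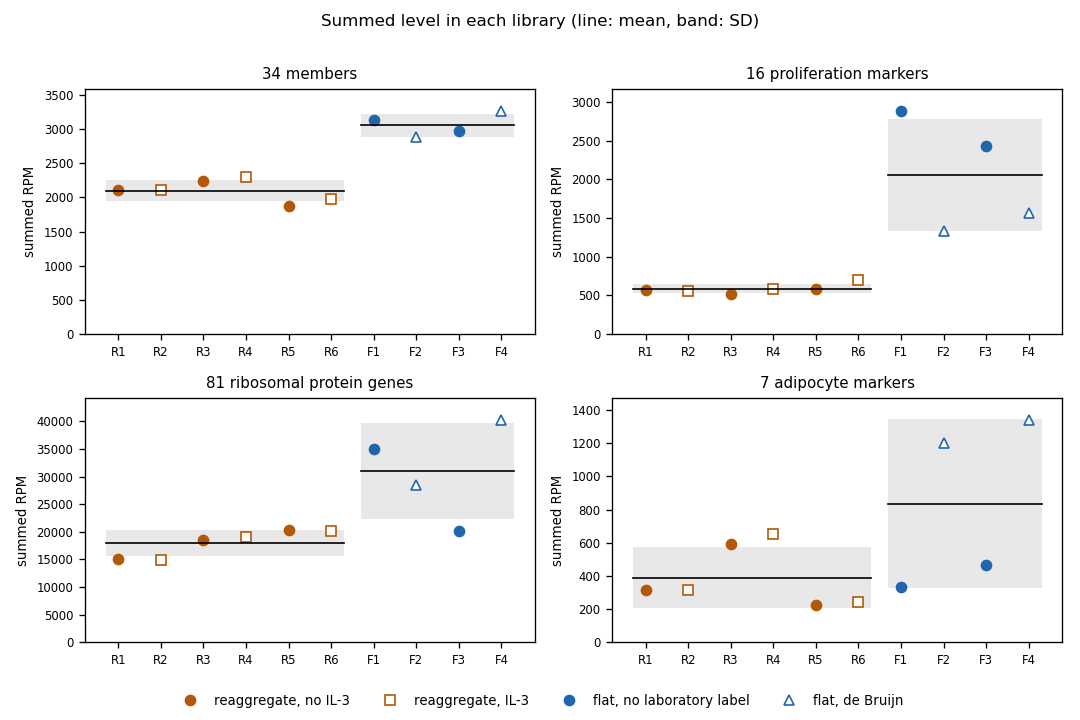
Summed RPM of the 34 members, 16 proliferation markers, 81 ribosomal protein genes and 7 adipocyte markers in each library, 1 panel a list with its own axis from 0. Members and proliferation markers sum lower in each of the 6 reaggregates than in each of the 4 flat cultures, and adipocyte markers are highest in flat cultures 2 and 4.

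Between the flat sources, the question was whether the members differ by the laboratory that supplied the cells. With 2 cultures against 2, 0 members were lower and 0 higher in the de Bruijn cultures by limma (3.87% and 1.82% of all genes), with 0 lower and 1 higher at an unadjusted p under 0.05. That member was *Nop2*, with a log2 difference of 1.17 and the smallest adjusted p of the members, 0.0671. A fit of 3 groups over the 10 libraries takes the spread mostly from the reaggregates and treats consecutive ones as independent. Their correlation was estimated at 0.906, so the p-values of this fit may be too small. It called *Nop56* and *Ebna1bp2* lower (log2 differences -0.73 and -0.59, adjusted p = 0.0419 and 0.0348), where 12.5% of all genes were lower. The same fit called *Nop2*, *Polr1a* and *Nhp2* higher (1.17, 0.998 and 0.71, adjusted p = 0.00134, 0.049 and 0.0354), where 6.05% of all genes were higher. With quantile normalization *Nop2* was called as well (adjusted p = 0.0274). The differences ran from -0.73 for *Nop56* to 1.17 for *Nop2*, with a median of -0.08. No flat culture was uniformly high or low: flat cultures 1 to 4 held the highest value of their group for 13, 7, 8 and 6 members and the lowest for 9, 12, 9 and 4.

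Addition of IL-3 to the reaggregates was compared in 3 cultures against 3. By limma 0 members changed, as did 0% of all genes, and 0 members reached an unadjusted p under 0.05, against 68 genes (0.402%). Differences of the members ran from -0.11 for *Tcof1* to 0.31 for *Gar1* on the log2 scale, with a median of 0.03. With consecutive reaggregates as a block, 0 members were called. At an unadjusted p under 0.05, 3 members were higher with IL-3 and 0 lower, against 564 genes (3.33%) in either direction.

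The members are spread over 18 chromosomes of the mouse genome, with at most 5 on the same chromosome. On build NCBIM37, *Myc* (ENSMUSG00000022346) lies at chr15:61816946-61821929, *Nop2* (ENSMUSG00000038279) at chr6:125081901-125094771 and *Dkc1* (ENSMUSG00000031403) at chrX:72341193-72355116, on the plus strand. *Bysl* (ENSMUSG00000023988) lies at chr17:47736280-47748441 and *Wdr12* (ENSMUSG00000026019) at chr1:60133712-60155489, on the minus strand. The closest members are *Nop58* and *Wdr12*, 364744 bases apart, and both fell.

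Since the members were grouped with MYC, their promoters were searched for its E-box, the letters CACGTG, which read the same on both strands. RefSeq promoter windows of 300 bases on build GRCm38.p6, from 250 before to 50 after the start, matched 28 of the 34 members (not *Bop1*, *Fbl*, *Myc*, *Npm1*, *Rrs1* or *Tcof1*). The letters were present in 4 of the 31 windows of these members (12.9%), against 7.15% of 32851 windows. Counted by gene, 4 of the 28 members (14.3%) had them, against 8.09% of 27025 genes. *Nop2* and *Wdr43* fell in reaggregates, and *Pes1* and *Mybbp1a* did not pass the test. The stretches are shown because they are the matches among members, with the E-box in capitals, each 5′ to 3′ on the plus strand, at chr6:125131811-125131840 for *Nop2*, chr17:71616220-71616249 for *Wdr43*, chr11:3963965-3963994 for *Pes1* and chr11:72441355-72441376 for *Mybbp1a*.
Nop2: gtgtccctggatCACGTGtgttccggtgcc
Wdr43: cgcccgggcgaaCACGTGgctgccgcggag
Pes1: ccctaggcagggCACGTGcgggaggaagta
Mybbp1a: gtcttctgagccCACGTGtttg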

How the data were processed

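RNA-seq of 10 OP9 libraries was used as deposited. The authors aligned reads with TopHat 1.2.0 and Bowtie to NCBIM37 (mm9), summed them over Ensembl genes in GeneProf, divided multimapping reads in proportion to unique ones, and deposited values on the reads-per-million scale (RPM). Their comparison columns for reaggregates against flat cultures, made with DESeq, were not used. Whole reads could not be recovered from the RPM, so no count model was run.

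Values were taken as log2(RPM + 0.5) for genes above 0.5 RPM in at least 1 library and fitted with limma 3.58.1 in R 4.3.3 (empirical Bayes with a mean-variance trend, two-sided, Benjamini-Hochberg over 16933 genes, called at an adjusted p of at most 0.05). Python 3.11.15, pandas 2.3.3 and matplotlib 3.10.9 made the summaries and plots. The comparisons were reaggregates against flat cultures, between flat sources, and with against without IL-3. The fit was tested on simulated data, and no outcome of that test is reported here. Library depth was estimated from the RPM at 7.35 M to 9.43 M reads on genes.

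Values per library are given for *Myc* and, in each role class, for the members with the largest and the smallest change. Of each other list, up to 2 rising and 2 falling genes among those called and averaging at least 5 RPM in the higher group are named, with 3 proliferation markers; *Max*, *Nhp2l1*, *Twistnb*, *Cd3eap*, *Znrd1* and the remaining members were added beyond that rule, after their values were seen. Members and lists were chosen with earlier results of these data known. Alternatives were other pseudocounts, filters and scalings, a fit without the trend, averaging or blocking consecutive reaggregates, a block on replicate number, each flat source, each IL-3 group, leaving out each library, and a fit of 3 groups for the flat sources. Averaging together with each flat source was added after seeing the data. Gene coordinates came from GENCODE M1.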

Additional observations from a re-analysis of the deposited data

Results flagged for a closer look

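In 4 of 130 groups of values, a single library lay far from the others of its group, where chance gives about 1 in 20 groups, or 6.5. *Tcof1* was at 70.4 RPM in flat culture 3, above the 43.2 RPM of the next flat culture. *Wdr75* was at 28.7 RPM in reaggregate 5, below the 38.5 RPM of the next reaggregate. *Pes1* was at 88.2 RPM in flat culture 1, above the 75.2 RPM of the next. *Rcl1* was at 23.9 RPM in reaggregate 3, above the 20 RPM of the next.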

How the results depend on the processing

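The 21 members lower in reaggregates became 2 with consecutive reaggregates averaged and 9 with them as a correlated block (of all genes, 888 of 16933). The count was 12 against the flat cultures without a laboratory label, and 2 with averaging (of all genes, 516 of 16637). It was 3 in reaggregates without IL-3 (of all genes, 520 of 16693) and 0 in those with it (381 of 16750). Against the de Bruijn flat cultures it was 18, and 14 with averaging (of all genes, 2588 of 16697). Each of these fits but the block has fewer values per gene. Leaving out 1 library gave 14 to 19. The 5 members at least 2-fold lower became 1 with averaging (of all genes, 429 of 16933). The number was 2 against the flat cultures without a laboratory label (of all genes, 1080 of 16637), and 2 with averaging against that source. In reaggregates without IL-3 it was 2, and in those with it 0. Against the de Bruijn flat cultures it was 7 (of all genes, 1776 of 16697), and 7 with averaging. Leaving out 1 library gave 2 to 7. The 2-fold counts printed without a share of all genes are not compared with other genes. The averaged fits by flat source were chosen after seeing the data.

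Replicate numbers do not pair the samples. With a replicate block, 9 members were lower (of all genes, 1754 of 16933), *Tcof1* was at 0.041 and *Mybbp1a* at 0.056. Between flat sources, where 0 members were called, a fit of 3 groups called 2 lower and 3 higher and quantile normalization 1 higher. The cause was not tested.

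Sign changes were confined to 5 members that were not called. Against the de Bruijn flat cultures, with or without averaging, the log2 fold change was 0.043 for *Tcof1*, 0.14 for *Bop1*, 0.037 for *Ebna1bp2* and 0.18 for *Mybbp1a*. Against the other flat cultures, with or without averaging, it was -0.16 for *Rrp1b*. Leaving out 1 library gave -0.20 to 0.044 for *Tcof1* and -0.17 to 0.027 for *Mybbp1a*. The cause was not tested. The median of the members ran from -0.64 to -0.56 with 1 library left out. Depth limits genes near 3 reads, far below the members' levels.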
